A study of Mus musculus with 24 samples.

Results

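Of the 27268 bins of 100 kb for which reads were counted, 1 is described here with the 5 bins on each side of it. It lies on chromosome 1 (mm10, chr1:24600001-24700000) and takes in the start of Lmbrd1. It was chosen by measured values, as the bin with the lowest ratio of H2AX and of gH2AX to input over all libraries. Those ratios are therefore given as a description without a test. The study profiled mouse embryonic fibroblasts (MEFs) of the C57BL6 strain by chromatin immunoprecipitation and sequencing, with an antibody against the histone variant H2AX, with one against gH2AX, or without antibody (input). Cells were female or male and either wild type (WT) or SIRT7-KO, which lack the NAD-dependent deacetylase SIRT7. All of them, WT controls included, had received 5 Gy of X-rays and 30 min of recovery. Each of the 12 groups (antibody or input, sex and genotype) held 2 libraries, 24 in all. The labels do not say that the 2 came from separate cultures or embryos, so p-values measure only the spread between these libraries, which may be technical.

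H2AX is a variant of the core histone H2A that is built into nucleosomes along nuclear chromatin, and gH2AX is H2AX phosphorylated by damage-response kinases around DNA double-strand breaks. Lmbrd1 encodes a lysosomal membrane protein that is needed for cobalamin (vitamin B12) to leave the lysosome. As further background, nuclear genomes carry inserted copies of mitochondrial DNA, and mitochondrial DNA is packaged by TFAM and not by histones. A short read from a sequence that is present both in mitochondria and in the nucleus can be aligned to either place.

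In the RefSeq annotation of GRCm38, the bin holds 3 annotated genes. Lmbrd1 (gene ID 68421, chr1:24676992-24766301) is protein-coding, and 25.8% of its length (23009 bases) lies in the bin. The other 74.2% fills part of the next bin. The remaining 2 are the pseudogenes Gm10222 (chr1:24612404-24612700, 297 bases) and Gm10925 (chr1:24613971-24614651, 681 bases). Gm10925 is listed with the synonyms mt-Atp6 and Mtatp6, the names of a mitochondrial gene for a subunit of ATP synthase. Among 9852 annotated pseudogenes on chromosomes 1 to 19 and X it was the only 1 with a mitochondrial gene's name among its synonyms. Its length equals that of the mitochondrial gene ATP6 (681 bases, positions 7927 to 8607), as do those of 6 pseudogenes in all, itself included. Gm10222 has the length of the mitochondrial gene ND4L (297 bases, positions 9877 to 10173), which encodes a subunit of complex I, and 4 pseudogenes in all have that length. The outer ends of the pair span 2248 bases in the nuclear genome, and ATP6 and ND4L span 2247 bases in the mitochondrial one. The pair thus matched the mitochondrial pair in both lengths and, within 1 base, in spacing. The mitochondrial sequence itself was not used here.

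The bin is called by Lmbrd1 because the only start of a protein-coding gene in it is that of Lmbrd1, and the table of RefSeq promoters (GRCm38.p6, 250 bases before to 50 after a start) has 2 entries for it. Both are on the plus strand and are shown as the promoter entries listed for the gene, with each CG dinucleotide in capitals. They lie inside the gene as annotated above, which starts at 24676992. Whether they act as regulatory sequence was not tested.
Lmbrd1 promoter 1, chr1:24678294-24678593: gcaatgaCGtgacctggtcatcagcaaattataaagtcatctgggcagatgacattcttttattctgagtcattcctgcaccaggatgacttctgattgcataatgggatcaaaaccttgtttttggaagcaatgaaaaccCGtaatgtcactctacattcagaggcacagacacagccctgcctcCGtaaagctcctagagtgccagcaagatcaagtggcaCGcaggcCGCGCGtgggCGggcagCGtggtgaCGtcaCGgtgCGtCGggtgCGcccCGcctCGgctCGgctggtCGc
Lmbrd1 promoter 2, chr1:24678668-24678967: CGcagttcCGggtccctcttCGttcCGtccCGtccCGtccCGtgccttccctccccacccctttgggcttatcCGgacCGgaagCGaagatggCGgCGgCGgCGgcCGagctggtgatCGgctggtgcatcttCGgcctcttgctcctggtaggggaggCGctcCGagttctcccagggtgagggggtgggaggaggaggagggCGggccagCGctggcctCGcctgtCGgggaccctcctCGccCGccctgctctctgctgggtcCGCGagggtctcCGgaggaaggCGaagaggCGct
The first holds 18 CG dinucleotides (searched as CG, which reads the same on both strands) with 54.0% G and C, and the second 30 with 71.0%. Of the 32851 promoters in the table, 29.7% hold 18 or more and 11.7% hold 30 or more, against a median of 7. Bins of 100 kb do not resolve these promoters from the rest of the bin.

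Sequencing depth was 90.97 M to 269 M reads for input, 65.8 M to 250 M for H2AX and 83.2 M to 209 M for gH2AX (M, 1e6 reads on chromosomes 1 to 19 and X). Chromosome Y took 0.0868% to 0.1% of the reads of libraries labelled female and 1.54% to 1.62% of those labelled male. The bin of Sirt7, the targeted gene, had an input change of 0.01 (log2) in KO females and -0.0020 in KO males (edgeR adjusted p = 0.986 and 0.994), and a 100 kb bin does not show the loss of an exon. Bins of chromatin DNA carry no markers by which the fibroblast label could be checked.

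The bin stood out in input and not in H2AX. In reads per 1000000 reads of a library (CPM), input held 364 and 356 in female KO, 398 and 397 in female WT, 319 and 347 in male KO, and 353 and 374 in male WT. The mean of the 10 neighbours in the same libraries was 34.6 to 35.9 CPM. Every input library was thus 9.11 to 11.5 times above its neighbours, and none of the neighbours exceeded 38.3 CPM. H2AX libraries held 36.6 and 35.7 CPM in female KO, 36.9 and 36.7 in female WT, 37.8 and 35.9 in male KO, and 36.7 and 36.2 in male WT, against 33.1 to 34.0 in their neighbours. That is 1.06 to 1.12 times the neighbour mean, within the span of the 10 neighbours (28.8 to 41.3 CPM over the H2AX libraries). The bin ranked 3 of the 11 in 7 H2AX libraries and 2 in 1. So the label of an H2AX-depleted bin holds for the ratio to input only: per 1000000 reads, H2AX was above the mean of the neighbours in every library, although below the bin directly to the right, which held 38.6 to 41.3 CPM.

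gH2AX lay between these levels. It was 110 and 111 CPM in female KO, 99.9 and 92.4 in female WT, 79.7 and 74.3 in male KO, and 116 and 116 in male WT, with neighbour means of 31.6 to 34.4. All 8 gH2AX libraries had the bin as the highest of the 11, at 2.23 to 3.40 times the neighbour mean. The raw counts behind these levels were 29052 to 107232 reads for input, 2360 to 9144 for H2AX and 6632 to 20147 for gH2AX, so counting error is small beside the differences between antibody and input.

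**Figure D1:**
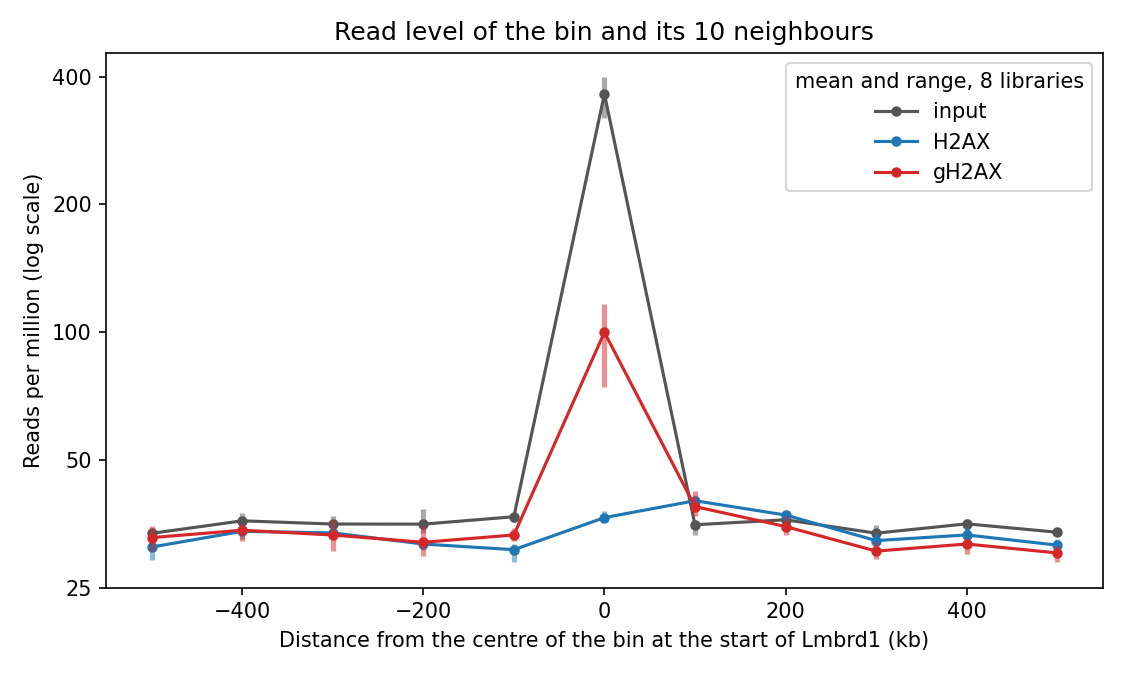
Reads per 1000000 (log scale) in the bin at the start of Lmbrd1 (distance 0) and its 10 neighbours, as the mean (points) and the range (bars) of 8 libraries each for input, H2AX and gH2AX. Input rises to a mean of 364 in the bin and gH2AX to 99.9, while H2AX stays at 36.5, near its neighbours.

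As ratios to input, fitted over all 24 libraries, H2AX in the bin was -3.32 ± 0.02 (log2, SE) and gH2AX -1.88 ± 0.02, which is 0.1 and 0.272 of the input level. By group, the H2AX ratio was -3.32 in female KO, -3.44 in female WT, -3.18 in male KO and -3.32 in male WT. The gH2AX ratio was -1.70, -2.05, -2.12 and -1.65 in the same order. The next lowest bin lay far from these values. It was chrX:126700001-126800000, without a protein-coding gene, at -1.05 for H2AX and -0.81 for gH2AX. For H2AX it was followed by chr10:16500001-16600000 (-0.66), chr12:3100001-3200000 (-0.64), chr16:66900001-67000000 (-0.64), in which Cadm2, a neuronal adhesion gene, lies, and chr16:86200001-86300000 (-0.63). For gH2AX the next were the bins at Chl1 (chr6:103600001-103700000, -0.55), another neural adhesion gene, at chr9:2900001-3000000 (-0.45), at Lrriq1 and Alx1 (chr10:103000001-103100000, -0.41) and at Csmd3 (chr15:48300001-48400000, -0.40). Input itself piled up in some of these bins. It was 51.0 times the neighbour median at chr12:3100001-3200000, 43.3 times at Chl1 and 2.66 times at chr9:2900001-3000000. At chrX:126700001-126800000 it was 1.41 times, and in the others 0.97 to 1.04 times. Median ratios over the 25703 bins were -0.0038 for H2AX and -0.02 for gH2AX.

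The neighbours carried ratios of the usual size. Those of H2AX ran from -0.26 to 0.18 and those of gH2AX from -0.16 to 0.14. The next bin to the right (chr1:24700001-24800000), which holds most of the body of Lmbrd1, had the highest ratio of the 10 for both, 0.18 ± 0.02 for H2AX and 0.14 ± 0.02 for gH2AX. There input was 35.2 ± 0.938 CPM (SD, n = 8), H2AX 40.0 ± 0.995 and gH2AX 38.8 ± 1.83. The lowest H2AX ratio among neighbours, -0.26 ± 0.02, was in the bin directly to the left (chr1:24500001-24600000), which holds one end of Col19a1, a collagen gene, the small nucleolar RNA gene Gm26418 and the pseudogene Tubb4b-ps2. Bins further left hold the rest of Col19a1 and Col9a1, a cartilage collagen gene, with the edge of Fam135a. The right end reaches Adgrb3, an adhesion receptor of the nervous system. The low ratio was thus limited to 1 bin among the 11 and was not shared by the bin with most of Lmbrd1.

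Subtracting the neighbour mean gives the reads by which the bin stood above its surroundings. In input these were 325 ± 5.61 CPM (SD, n = 2) in female KO, 363 ± 0.945 in female WT, 298 ± 19.7 in male KO and 328 ± 14.1 in male WT. In gH2AX they were 77.8 ± 0.215, 63.9 ± 6.21, 43.6 ± 3.69 and 81.7 ± 0.789. In H2AX they were 2.95 ± 0.668, 3.59 ± 0.0914, 2.95 ± 1.52 and 2.60 ± 0.591. Set against the input of the same group, gH2AX libraries kept 23.9% of this excess in female KO, 17.6% in female WT, 14.6% in male KO and 24.9% in male WT. H2AX libraries kept 0.907%, 0.99%, 0.99% and 0.792%, or 0.92% over all groups. A wider or narrower choice of neighbours bears on the H2AX excess most, since it is small against the spread of the neighbours themselves. Rows of the table cover chromosomes 1 to 19, X and Y, and reads of mitochondrial DNA were not analysed here. The part of such reads in the excess was not tested.

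**Figure D2:**
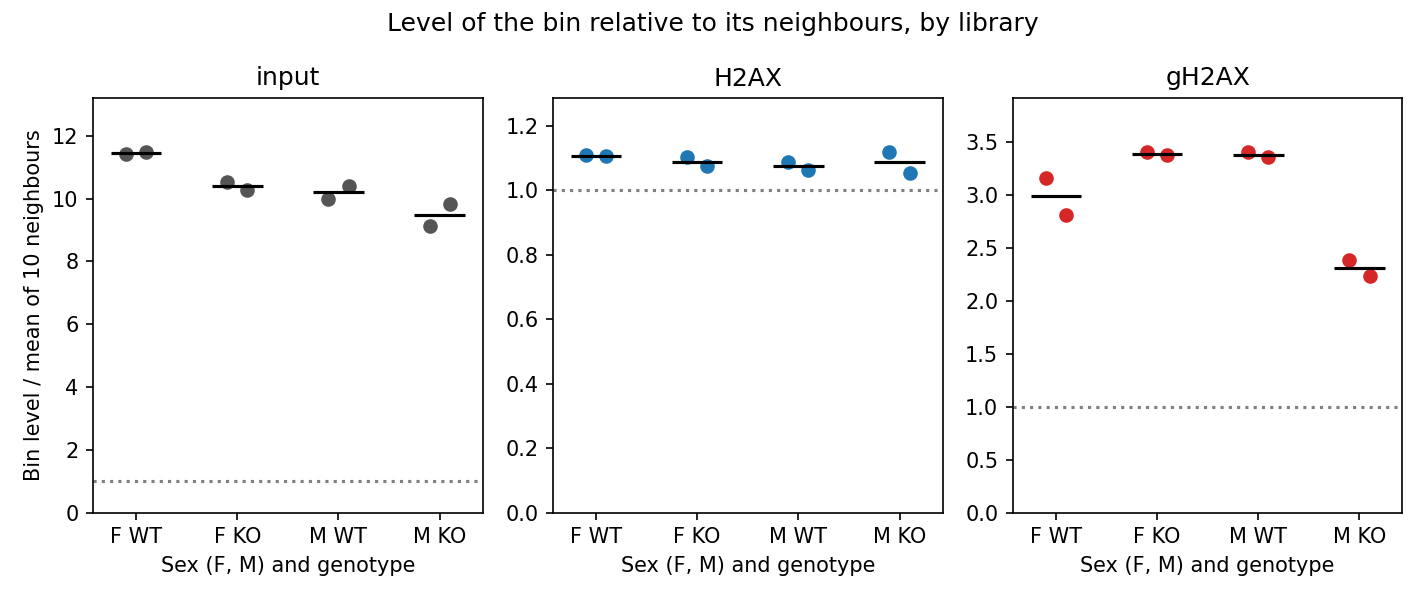
Level of the bin divided by the mean of its 10 neighbours in each library, for input, H2AX and gH2AX, with sex (F, M) and genotype on the horizontal axis, group means as bars and a dotted line at 1. Input lies between 9.11 and 11.5, H2AX between 1.06 and 1.12, and gH2AX between 2.23 and 3.40 with the male KO libraries lowest.

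Whether loss of SIRT7 changed the bin was asked within each sex. The choice of the bin used the ratios over all groups and not the contrast of KO with WT, but the libraries are the same. The answer differed between sexes for gH2AX. In males gH2AX was lower in KO than in WT by -0.60 ± 0.03 (log2, SE; 0.659-fold, edgeR adjusted p = 1.45e-75), and no KO library reached a WT library. In females it was higher in KO by 0.21 ± 0.03 (1.16-fold, edgeR adjusted p = 4.26e-08), again without overlap. Lack of overlap between 2 libraries and 2 is weak evidence, since an exact permutation test of them cannot give a p below 0.333. The interaction of genotype and sex was 0.81 ± 0.05 (edgeR adjusted p = 9.94e-69). Of all 25702 bins tested, 21.7% were called lower in KO males, 0.412% higher in KO females and 19.6% higher in the interaction. Only 2 bins fell further in KO males. DESeq2 called the male, female and interaction changes too, with adjusted p = 4.98e-27, 0.0283 and 1.17e-24. These directions hold with TMM, RLE and plain-total scaling, but subtracting a genome-wide difference between the gH2AX libraries, described below, turned both, to 0.22 in males and -0.10 in females.

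H2AX did not follow. Its change in the bin was -0.02 ± 0.04 in KO females and 0.02 ± 0.04 in KO males (edgeR adjusted p = 0.981 and 0.942), and the interaction was -0.04 ± 0.05 (edgeR adjusted p = 0.915). Of all bins, 0.152% were called in H2AX of females, 0.187% in males and 0.272% in the interaction. The shares in males and in the interaction hung on 1 library: without H2AX male KO replicate 1, the bins called went from 48 to 327 in males and from 70 to 236 in the interaction. Input was lower in KO of both sexes, by -0.14 ± 0.02 in females (0.905-fold, edgeR adjusted p = 2.66e-08) and -0.13 ± 0.02 in males (0.917-fold, edgeR adjusted p = 6.72e-06), without overlap within a sex. The 2 changes differed by -0.02 ± 0.03 (edgeR adjusted p = 0.903). Of all bins, 0.132% were called lower in females, 0.124% lower in males and 0.257% in the interaction. These input calls depended on the test. With DESeq2 the adjusted p was 1.00 in females and 0.998 in males, and with edgeR's robust estimate, which lets a bin keep a spread above that of other bins, it was 0.536 and 0.574. The male change was -0.07 (adjusted p = 0.327) without input male KO replicate 1 and -0.08 (adjusted p = 0.196) without input male WT replicate 2. Over both sexes, the excess above the neighbours in input was 312 ± 19.6 CPM in KO and 345 ± 21.8 in WT (SD, n = 4), with p = 0.0857 in an exact two-sided permutation test (adjusted over 6 such comparisons, 0.343), for which 0.0286 is the smallest p possible. The test ignored sex, and within each sex this excess was lower in KO without overlap. Without input male WT replicate 1 the difference of -33.6 CPM became -42.8, with an exact permutation p of 0.0286.

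Relative to input, the same directions held for gH2AX. The gH2AX ratio to input was higher in KO females by 0.35 ± 0.04 (edgeR adjusted p = 4.07e-11) and lower in KO males by -0.48 ± 0.04 (edgeR adjusted p = 8.01e-20), with an interaction of 0.83 ± 0.06 (edgeR adjusted p = 3.81e-28). Of all bins, 0.191% were called higher in females, 8.49% lower in males and 10.6% higher in the interaction. These comparisons use the same gH2AX libraries as those above and are not independent of them. For the H2AX ratio to input the changes were 0.12 ± 0.04 in females and 0.14 ± 0.05 in males (edgeR adjusted p = 0.986 and 0.319), with an interaction of -0.02 ± 0.06 (edgeR adjusted p = 0.979). Of all bins, 0%, 0.0311% and 0.0195% were called in these 3 comparisons.

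**Figure D3:**
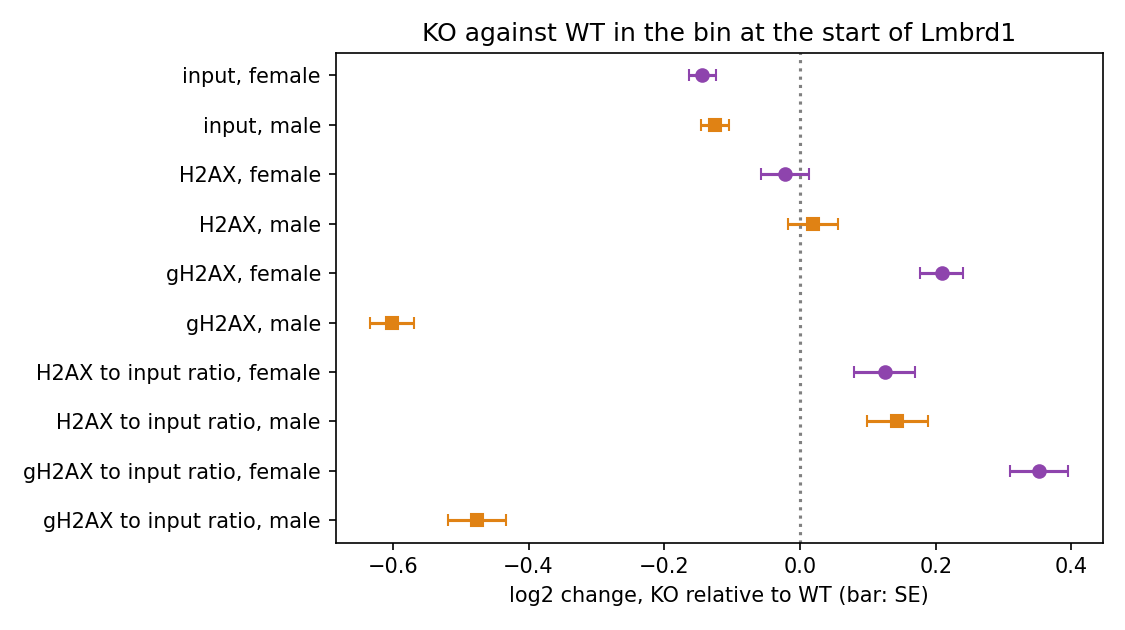
log2 change of KO relative to WT in the bin (horizontal axis, bars are SE) for input, H2AX, gH2AX and both ratios to input, in females (circles) and males (squares). gH2AX moved to 0.21 in females and to -0.60 in males, while H2AX stayed at -0.02 and 0.02.

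Between the sexes, averaged over genotypes, input in the bin was higher in females by 0.16 ± 0.01 (edgeR adjusted p = 1.67e-20) and gH2AX by 0.17 ± 0.02 (edgeR adjusted p = 1.68e-13). The average for gH2AX joins opposite directions: females were lower in WT (99.9 and 92.4 against 116 and 116 CPM) and higher in KO (110 and 111 against 79.7 and 74.3), without overlap in either. H2AX differed by 0.03 ± 0.03 (edgeR adjusted p = 0.536), and by 0.13 (adjusted p = 7.87e-05) when the library trend described below was subtracted. With edgeR, 10.1% of all bins were called for H2AX. Over all bins, 6.87% were called higher in females for input and 7.29% for gH2AX, a share that includes the X chromosome, which is present in 2 copies in females. These shares were not split by chromosome, so they do not show how common such a call was on autosomes, where the bin lies. The gH2AX ratio to input did not pass (0.01 ± 0.03, edgeR adjusted p = 0.980, with 0.0233% of bins called). Its average too joins opposite directions, -2.05 in females against -1.65 in males in WT and -1.70 against -2.12 in KO, so it does not show that the sexes were alike. The H2AX ratio to input was lower in females by -0.13 ± 0.03 (edgeR adjusted p = 0.0185, with 0.0856% of bins called lower), but it did not pass with DESeq2 (adjusted p = 0.179), with the robust estimate (0.305) or without any 1 of 9 of the 16 libraries, where it lay between -0.10 and -0.13. In the excess above neighbours, females and males overlapped for all 3, with exact permutation p of 0.114 for input, 0.371 for H2AX and 0.514 for gH2AX (n = 4 each, two-sided, adjusted 0.343, 0.557 and 0.617). For input the overlap came from joining genotypes: females exceeded males without overlap within KO (321 and 329 against 284 and 312 CPM) and within WT (362 and 364 against 318 and 338), where 2 libraries against 2 cannot give an exact p below 0.333. KO and WT overlapped as well over both sexes, with exact permutation p of 0.829 for H2AX and 0.286 for gH2AX. For gH2AX this joined opposite directions. The excess in KO lay above that in WT in females (77.8 against 63.9 CPM) and below it in males (43.6 against 81.7), without overlap in either.

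None of the 10 neighbours was called for KO against WT in input or H2AX of either sex, or in gH2AX of females, by edgeR or DESeq2. Of all bins, 0.183% were called in input of females, 0.222% in input of males and 1.01% in gH2AX of females. At an unadjusted p under 0.05 there were 2 for input in males and 0 for the other 4 comparisons. In gH2AX of males 3 of the 10 were lower and none higher, against 21.7% and 22.9% of all bins, so their share was near the background. They were the bins at chr1:24400001-24500000 (-0.14 ± 0.04, edgeR adjusted p = 0.0028) and chr1:24300001-24400000 (-0.10 ± 0.04, adjusted p = 0.0207), both within Col19a1, and chr1:24900001-25000000 (-0.11 ± 0.04, adjusted p = 0.0189), without a gene. DESeq2 called 2 of the 10 lower, against 35.9% of all bins called in either direction. In the ratio of gH2AX to input, edgeR and DESeq2 called none of the 10 in either sex, and none had an unadjusted p under 0.05. For this ratio edgeR called 94 of 25703 bins in females and 5003 in males. A count of none among 10 thus says little in females.

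The gH2AX libraries also differed along the whole genome in how far gene-dense bins stood above gene-free ones. This contrast, the median log2 ratio to input of 666 autosomal bins with 5 or more protein-coding genes minus that of 13359 bins without one, was 0.42 and 0.39 in female KO, 0.49 and 0.46 in female WT, 0.52 and 0.51 in male KO, and 0.36 and 0.34 in male WT. The groups thus ranked in the reverse of their level in the bin: male WT had the lowest contrast and the most reads in the bin, and male KO the highest contrast and the fewest. For H2AX the contrast ran from 0.44 to 0.48 and the bin from 35.7 to 37.8 CPM. When each library's linear trend on enrichment was subtracted, gH2AX in the bin was higher in KO males by 0.22 ± 0.03 (edgeR adjusted p = 1.65e-08) and lower in KO females by -0.10 ± 0.03 (adjusted p = 0.212), with an interaction of -0.32 ± 0.04 (adjusted p = 1.92e-09). The trend was fitted on autosomal bins with a ratio size under 1 (log2), after the data had been seen, so its value at this bin is an extrapolation. What was subtracted here is each library's slope times the bin's own ratio to input (-1.88 for gH2AX), by which the bin was chosen. The size of the shift was thus fixed by the slopes and that ratio. The p-values with the trend subtracted, also that for H2AX given above, are therefore not tests independent of the choice of the bin. No neighbour was called for gH2AX in this setting. Of 25702 bins, 698 were called in it in males (2.72%), 73 in females and 471 in the interaction. The part of the library-wide difference in the change of the bin was not tested beyond this.

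**Figure D4:**
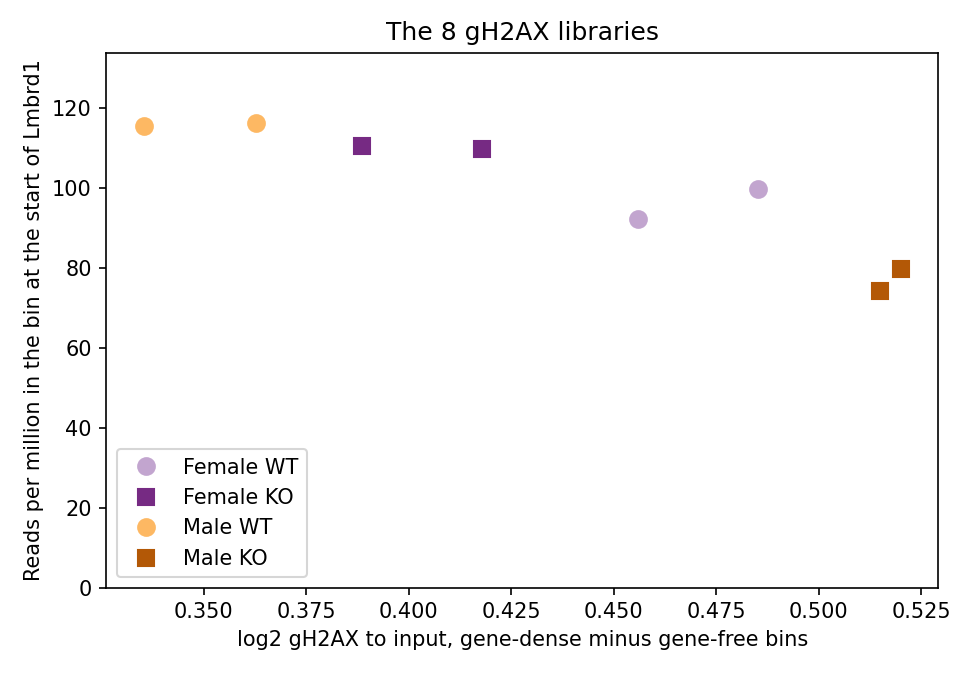
Reads per 1000000 in the bin (vertical axis) against the contrast between gene-dense and gene-free bins (horizontal axis, log2) for the 8 gH2AX libraries, by sex and genotype. Male WT lies at 116 with a contrast of 0.34 and 0.36, and male KO at 74.3 and 79.7 with 0.51 and 0.52.

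Other bins in which input piled up were compared as the most like cases. In 32 bins, this one included, mean input was at least 3 times the median of the 10 neighbours, and this bin was eighth at 10.3 times. The other 31 had H2AX ratios to input of -0.64 to 0.63 with a median of 0.14, and 12 of them lay below 0. Their gH2AX ratios were -0.55 to 3.38 with a median of -0.05, and 20 lay below 0. So at this threshold most had more H2AX than input and most had less gH2AX, beside medians over all bins of -0.0038 and -0.02. The share of all bins below 0 was not counted, so these counts do not set the pile-up bins apart. At 5 times, 7 of the 9 other bins lay below 0 in H2AX (median -0.46) and 6 in gH2AX (median -0.31). The lowest of the 31 were far above the -3.32 and -1.88 of the bin at the start of Lmbrd1. The 5 bins with the tallest pile-ups (chr2:98600001-98700000 at 1877 times, chr9:3000001-3100000, chr14:19400001-19500000, chr9:35300001-35400000 and chr12:3100001-3200000) had H2AX ratios of -0.36 to -0.64. In these 5, gH2AX was called higher in KO females (0.11 to 0.20) and lower in KO males (-0.22 to -0.26), the directions of the bin at the start of Lmbrd1. This did not hold for all taller bins. The next in height, chr11:3100001-3200000 (44.2 times, H2AX ratio 0.48), had -0.07 in females and 0.0019 in males, neither called. After it, the bin at Chl1 (43.3 times) had 0.07 in females, not called, and -0.17 in males, called lower. The bin at chr17:39800001-39900000, the highest in gH2AX to input at 3.38, had the opposite directions (-0.68 in females and 0.82 in males). Of the 31 bins, 6 were called higher and 2 lower in KO females, and 3 higher and 13 lower in KO males. Of all bins, 0.412% and 0.595% were called in females and 22.9% and 21.7% in males. All of these changes come from the same gH2AX libraries.

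**Figure D5:**
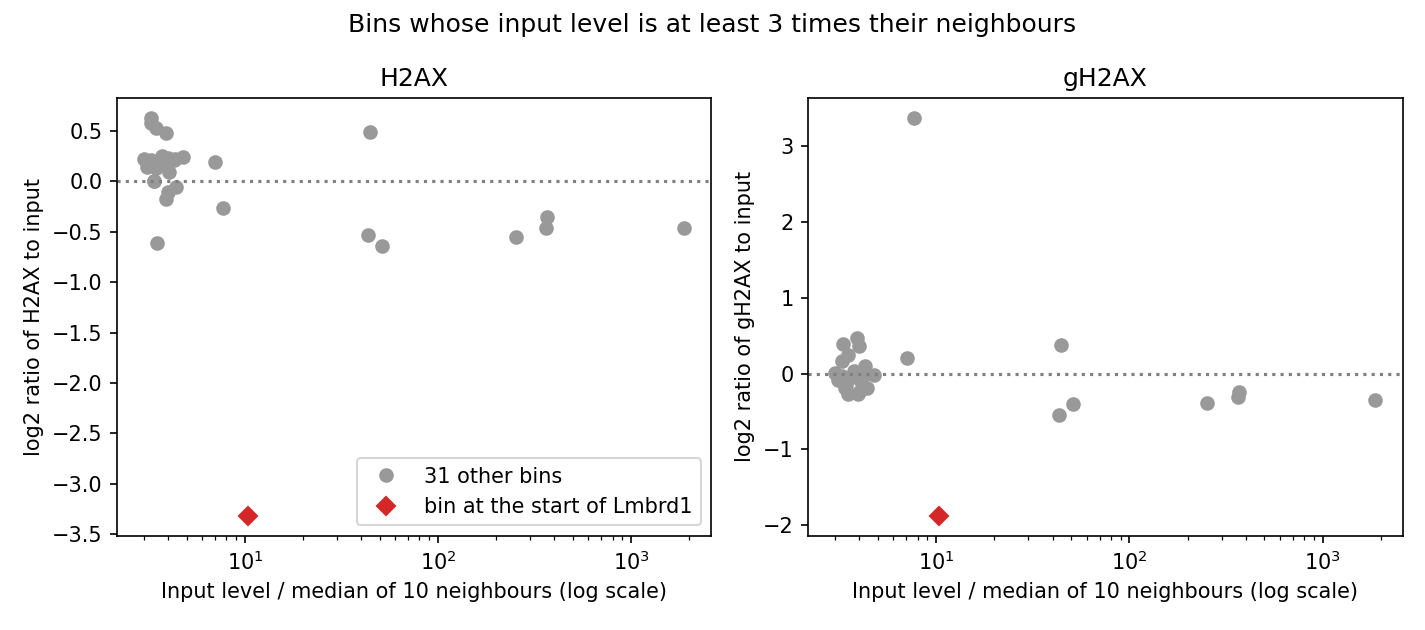
Ratio of H2AX (left) and gH2AX (right) to input, in log2, against the input level relative to the neighbour median (log scale), for the 32 bins with input at least 3 times that of their neighbours. The bin at the start of Lmbrd1 (diamond) lies at -3.32 and -1.88, below the 31 other bins in both panels.

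Over the 24 libraries, the 5 bins whose log2 CPM profile was most like that of the bin, by Pearson correlation, were chr4:27500001-27600000, chr5:80400001-80500000, chr3:141100001-141200000, chr9:84400001-84500000 and chr12:49900001-50000000, all without a protein-coding gene. Their correlations were 0.983 to 0.985, and they share the libraries and their scaling with the bin. The likeness did not extend to the size: the SD of log2 CPM was 0.17 to 0.24 in these bins against 1.39. Their H2AX ratios to input were -0.41 to -0.58 and their gH2AX ratios -0.24 to -0.30. The profile of the bin is set mainly by its steps between input, gH2AX and H2AX, the ratios by which it was chosen. Low ratios in the like bins therefore follow from how they were picked. Within the 8 input libraries alone the correlations were -0.76 to 0.32, so the likeness did not extend to the differences among input libraries. Within the 8 gH2AX libraries they were 0.58 to 0.88.

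Lmbrd1 works with a set of genes for the uptake and use of cobalamin, each taken here by the bin with most of its body. All 20 on the list were measured. In KO males gH2AX was called higher in 11 of the 20 bins and lower in none, against 22.9% and 21.7% of all bins, with a median of 0.09 against -0.0056. DESeq2 called 8 of the 20 higher and none lower, against 35.9% of all bins called by it in either direction. The 11 called by edgeR included the bins of Amn (0.17), which with Cubn (0.14) forms the intestinal receptor for intrinsic factor and cobalamin, Mtrr (0.15) and Mtr (0.12), which remethylate homocysteine, Mmab (0.15) and Mmaa (0.11), which supply adenosylcobalamin in mitochondria, and Mmachc (0.15), which processes cobalamin in the cytosol. The others were Thap11 (0.14), a transcription factor, Tcn2 (0.10), the plasma carrier, Abcd4 (0.10), the lysosomal partner of LMBD1, and Cd320 (0.09), the cell-surface receptor. The bin with most of Lmbrd1 had 0.05 ± 0.04 (edgeR adjusted p = 0.199). The list lay in bins rich in gH2AX (median ratio to input 0.18, above 0 in 16 of 20), and after subtraction of the library trend 1 of the 20 was called, against 2.72% of all bins, with a median of 0.0034. In the other 5 comparisons of KO with WT (input and H2AX of both sexes, gH2AX of females), neither edgeR nor DESeq2 called any of the 20, with 0 to 4 at an unadjusted p under 0.05. Of all bins, edgeR called 0.152% to 1.01% in these 5, so a count of none among 20 is near the background.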

How the data were processed

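The authors deposited, for each library, whole-number read counts in bins of 100 kb on mm10. The submitters' processing notes name, without roles, Trimmomatic 0.36, Bowtie2 2.2.9 and SAMtools 0.1.19 among the tools. Handling of duplicates and of reads with several alignments is not given in the sources used here, which limits what counts over repeated sequence show. A further 24 columns, which matched no label, were left out.

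Counts were fitted with edgeR 4.0.16 (R 4.3.3): filterByExpr on chromosomes 1 to 19 and X (25703 bins for input and H2AX, 25702 for gH2AX), TMM factors on autosomes, a mean per group, and two-sided quasi-likelihood F tests with Benjamini-Hochberg adjustment over all bins tested (call at 0.05). Single antibodies used 8 libraries, and ratios to input all 24. SEs were derived from the F statistic. CPM are reads per 1000000 reads on chromosomes 1 to 19 and X, without TMM. Replicates differed by more than counting error (chi-square per degree of freedom 2.59 to 3.87). On simulated counts for gH2AX in females (25702 bins), 58% of bins changed 1.1-fold and 100% of those changed 1.2-fold were called, with 4.28% false calls. False calls were 1.13% for input and 5.85% for H2AX. The simulation gave all bins the same dispersion (0.0005) and held no trend between libraries, so its false-call rates need not hold for these data. Alternatives were DESeq2 1.42.0, RLE factors, no filter, plain totals, a replicate block, each library left out, and, added after seeing the data, the robust estimate and a library trend (the linear dependence of a library's deviation on the bin's log2 ratio to input, subtracted).

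The bin, the gene list and the tests were chosen with earlier results of these data known. Named were the genes in the 11 bins, the 5 most correlated bins, the 5 next lowest bins per antibody and called genes of the cobalamin list. The comparison with other nuclear copies of mitochondrial DNA, and with mitochondrial reads, was not made here.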

Additional observations from a re-analysis of the deposited data

Results flagged for a closer look

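The change of gH2AX with genotype in the bin at the start of Lmbrd1 differed between females and males, by 0.81 (log2) in gH2AX and by 0.83 in its ratio to input. In the same test of genotype and sex, 2 of the 10 neighbour bins were called higher, both within Col19a1. They were chr1:24300001-24400000 by 0.16 and chr1:24400001-24500000 by 0.17. Of all bins, 19.6% were called higher in this test, so the share of neighbours was near the background. DESeq2 called both neighbours as well. In the ratio to input the differences were 0.09 ± 0.07 and 0.13 ± 0.07 (SE; edgeR adjusted p = 0.398 and 0.204). Neither was called there, against 10.6% of all bins called higher, although part of each remained with a larger error. Neither was called with the library trend subtracted, where 471 of 25702 bins were called.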

How the results depend on the processing

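Direction was kept for all 22 fitted results with RLE factors, without the filter and with plain totals, and so was the call of those tested. The ratios over all groups carry no test and moved by less than their SE. The replicate block kept all 25 (gH2AX in KO males -0.60, adjusted p = 7.01e-42), but the numbers share no stated origin, and deviations of same-numbered libraries correlated at -0.02 to 0.06. The permutation tests of reads above the neighbours are among the 25. Their calls could not change, since with this block the smallest possible p is 0.125. DESeq2 kept 19 of 22 and lost the KO change of input in females (-0.14) and males (-0.13) and the female difference in H2AX to input (-0.13). The robust estimate lost the same 3 (-0.14, -0.13 and -0.13). Subtracting the library trend turned the KO changes of gH2AX (-0.10 in females, 0.22 in males, interaction -0.32) and of H2AX (0.056, -0.013 and 0.069), and called the female difference in H2AX (0.13). It lowered the bins called for gH2AX from 11451 to 698 in males, from 259 to 73 in females (90 with DESeq2) and from 10368 to 471 in the interaction. The cause was not tested.

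Leaving out each library gave -0.19 to -0.070 for input in KO males, -0.075 to 0.043 for its interaction, -0.028 to 0.051 for H2AX in KO males and -0.074 to 0.0054 for its interaction. The ratio of H2AX to input ran from -0.079 to 0.037 for the interaction and from -0.16 to -0.10 for females against males. The ratio of gH2AX to input ran from -0.020 to 0.039 for females against males and from -1.89 to -1.86 over all groups. The KO change of gH2AX stayed called, at 0.15 to 0.26 in females and -0.65 to -0.55 in males. Reads above the neighbours, KO minus WT, ran from -42.8 to -24.4 CPM in input from -17.8 (without gH2AX female KO replicate 2) to -5.52 (without male KO replicate 2) in gH2AX, against -12.1 with all, and from -0.50 to 0.21 in H2AX, which was 0.0020 with 3 neighbours on each side. Bins called for gH2AX ran from 75 to 324 in females and from 7028 to 8323 in males, and for its ratio to input from 33 to 199 (94 with all) and from 2488 to 4206 (5003 with all). Thresholds of 2 and 5 times gave 86 and 10 pile-up bins against 32.

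Comparisons with mitochondrial reads and with other nuclear copies of mitochondrial DNA were not run, since no rows or sequence for them were used here. On simulated counts with 2 libraries a group, 50% (input, females) to 58% (gH2AX, females) of bins changed 1.1-fold were called, so smaller changes can be missed.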
